A study of Homo sapiens with 6 samples.

Results

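The BCL2 family decides at the mitochondrial outer membrane whether a cell enters apoptosis. The 10 family genes described here were taken by name and not by their values, from 61279 genes to which reads could be summed. BCL2, BCL2L1 and MCL1 encode anti-apoptotic proteins, BAX and BAK1 encode the effectors, and BBC3, BCL2L11, BID, BAD and PMAIP1 encode BH3-only proteins. All libraries were labelled T47D, a line of hormone receptor-positive breast cancer cells that carries a PIK3CA mutation, with the genotype given as WT in the labels. A set of 3 libraries carried the label DMSO, the solvent alone for 24 hours, and 3 carried the label MI-503, for 24 hours at 4 μmol/L. MI-503 is a small molecule that keeps menin from binding the histone methyltransferase MLL1. The paper kept its cell lines in medium with serum, either RPMI or DMEM, and the labels name the 3 samples of each group as biological replicates. The comparison asks which genes differ in expression after menin-MLL1 inhibition.

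In the textbook account, anti-apoptotic members hold the effectors and the BH3-only proteins in a groove on their surface. Once freed or activated, BAX and BAK form pores in the outer membrane, and cytochrome c then leaves the mitochondria and activates caspases. The BH3-only proteins differ in which anti-apoptotic proteins they bind. NOXA, the product of PMAIP1, binds MCL-1 most tightly, BAD binds BCL-2 and BCL-XL, and PUMA, BIM and BID bind all of them. BCL2 is a well-known estrogen receptor target in luminal breast cells.

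The labels went against the marker genes, and this bears on every value given here. In the libraries labelled DMSO, the estrogen receptor gene ESR1 was at 0, 0.194 and 0 CPM (reads scaled to a common library size by trimmed means), against 210, 240 and 296 CPM in those labelled MI-503. The progesterone receptor gene PGR was at 0.407, 0.533 and 0.0456 CPM against 1280, 1350 and 1530 CPM. KLK3, the prostate-specific antigen gene, was at 3760, 3690 and 3670 CPM with the DMSO label and at 0 in all 3 MI-503 libraries, at least 69800-fold lower against a floor of 3 reads over the group. Of 20 luminal breast markers, the 16 that could be tested were all higher with the MI-503 label, with a summed level of 316 to 463 CPM against 12580 to 15560 CPM. Of 18 prostate markers, the 16 tested were all lower, with 7250 to 9148 CPM against 184 to 190 CPM. The 6 blood cell markers summed to at most 0.365 CPM in any library. The fibroblast markers summed to 30.1 to 53.9 CPM against 77.4 to 120 CPM, nearly all of it from COL1A1. By these markers the libraries labelled DMSO did not show the expression of a luminal breast line, and whether they come from the same cell line as those labelled MI-503 is uncertain. Any effect of MI-503 and any other difference between the 2 groups of libraries cannot be told apart, so higher and lower below refer to the labels only. Likewise, in RNA from whole cultures, fewer cells of a type and less RNA per cell cannot be told apart. Total reads per library lay between 17404736 and 22168525. Log-scale values correlated at 0.974 to 0.992 between libraries of a label and at 0.758 to 0.778 between labels.

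With the MI-503 label, transcripts of BCL2L1, MCL1, BAK1, BBC3, BID and BAD were higher and those of BCL2, BCL2L11 and PMAIP1 were lower, while BAX did not pass the test. So 9 of the 10 genes passed an adjusted p of 0.05 in edgeR's quasi-likelihood test, where 62.9% of the 16442 genes tested did. The 6 higher genes stand beside 31.7% of all genes tested that were higher, and the 3 lower genes beside 31.2%. The median log2 fold change of the 10 was 0.63, against -0.004 over all genes tested. CPM of the labels did not overlap for 9 of the 10, and for 68.7% of all genes. Only BCL2 also passed a log2 fold change of 2 in size, which 24.3% of all genes did. That count was 0 without DMSO replicate 1 and 2 without DMSO replicate 3. Since most genes differed between these labels, the number of calls is no result about the family. What the data describe is which members stood on which side, and by how much.

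**Figure D1:**
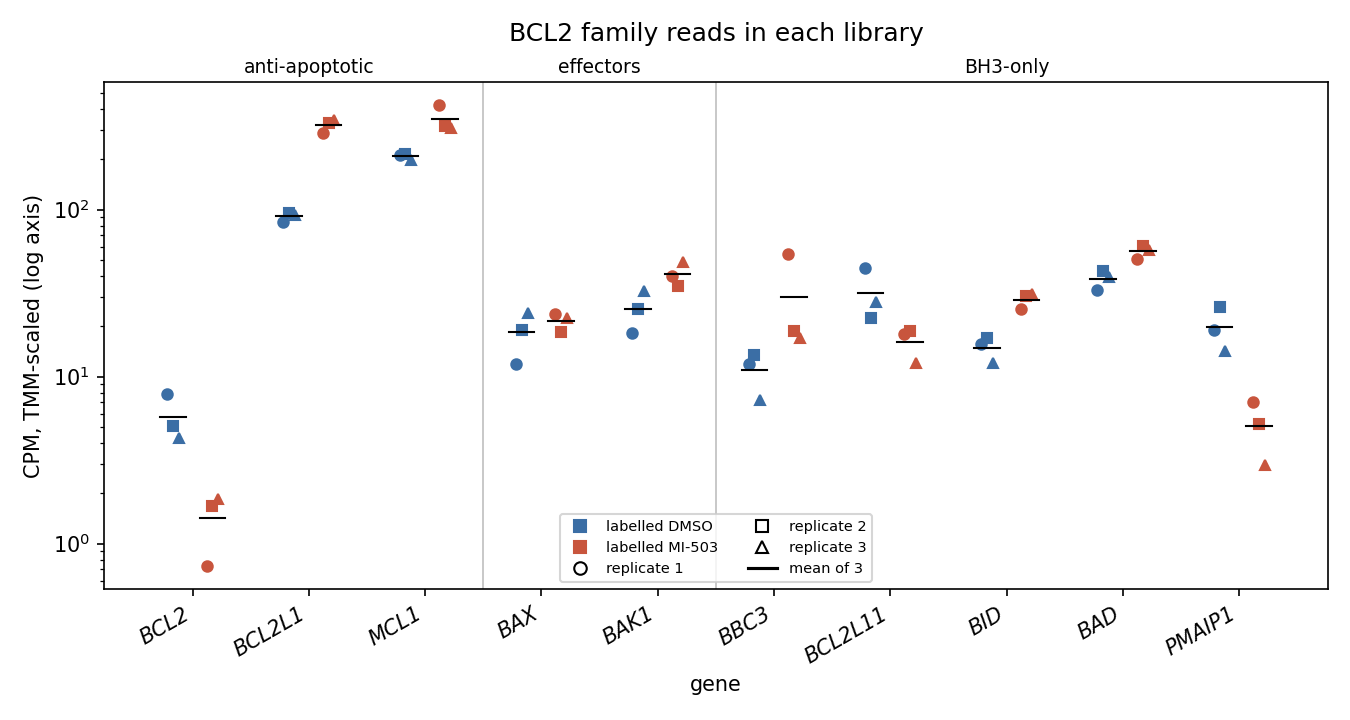
Reads of the 10 genes in each library, as CPM on a log axis, grouped by role. Each point is a library, coloured by label with its replicate number as the shape, and bars are means of 3. The labels are separate for every gene except BAX, and BBC3 with the MI-503 label has 1 library (54.5 CPM) far above the other 2 (18.7 and 17 CPM).

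The RefSeq windows around the starts of these genes (250 bases before to 50 after, GRCh38.p14) were matched by symbol for 9 of the 10, without MCL1. BCL2L1 and BAD had 2 windows each and BID had 5, and only 1 window per gene was searched. The windows of 4 are printed, 5′ to 3′ on the gene's strand, for the gene with the largest higher call, the 2 BH3-only genes that were lower, and the effector that did not pass the test. Capitals mark matches on either strand to the GC box, whose letters are GGGCGG, to the E-box, which is CACGTG on both strands, or to the CCAAT box.
BCL2L1, chr20:31722819-31723118, minus strand: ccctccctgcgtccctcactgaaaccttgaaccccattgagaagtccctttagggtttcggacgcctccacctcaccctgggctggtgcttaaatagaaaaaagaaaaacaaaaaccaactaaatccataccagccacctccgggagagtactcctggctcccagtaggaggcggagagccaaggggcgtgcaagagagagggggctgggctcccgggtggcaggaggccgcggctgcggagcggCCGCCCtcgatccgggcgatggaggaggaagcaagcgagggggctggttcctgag
PMAIP1, chr18:59899746-59900045, plus strand: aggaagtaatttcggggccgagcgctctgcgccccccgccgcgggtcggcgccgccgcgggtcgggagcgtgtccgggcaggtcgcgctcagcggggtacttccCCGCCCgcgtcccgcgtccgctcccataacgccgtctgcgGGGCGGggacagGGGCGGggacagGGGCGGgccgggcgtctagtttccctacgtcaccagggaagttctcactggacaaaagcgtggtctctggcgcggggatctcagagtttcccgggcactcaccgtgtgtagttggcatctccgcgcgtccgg
BCL2L11, chr2:111120664-111120963, plus strand: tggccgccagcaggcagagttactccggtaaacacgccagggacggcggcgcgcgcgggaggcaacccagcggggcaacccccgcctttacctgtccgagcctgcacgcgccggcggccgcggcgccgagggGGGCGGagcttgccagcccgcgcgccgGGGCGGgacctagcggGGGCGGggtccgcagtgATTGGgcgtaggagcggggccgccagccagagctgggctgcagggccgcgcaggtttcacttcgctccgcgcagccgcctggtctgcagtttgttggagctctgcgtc
BAX, chr19:48954625-48954924, plus strand: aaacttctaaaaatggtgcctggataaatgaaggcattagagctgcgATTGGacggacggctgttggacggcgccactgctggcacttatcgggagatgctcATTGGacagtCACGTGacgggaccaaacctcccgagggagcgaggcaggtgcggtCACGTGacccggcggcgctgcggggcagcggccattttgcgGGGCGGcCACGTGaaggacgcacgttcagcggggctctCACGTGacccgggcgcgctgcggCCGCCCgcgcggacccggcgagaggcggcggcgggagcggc

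The PMAIP1 window held 4 GC boxes, that of BCL2L11 held 3 with 1 CCAAT box, and that of BCL2L1 held 1 GC box. The BAX window held 2 GC boxes, 2 CCAAT boxes and 4 E-boxes. Among all 35116 promoter windows, 45% held a GC box, 34.6% a CCAAT box and 7.26% an E-box. No window of the 9 held a cyclic AMP element (TGACGTCA, in 1.85% of all windows), an estrogen receptor half-site (AGGTCA, 13.8%), an androgen receptor half-site (AGAACA, 14.8%) or a TATA box (TATAAA, 11.5%), on either strand. The p53 half-site, in 6.63% of all windows, was found in that of BAK1 alone, where it overlapped a GC box. In GC content, the windows of PMAIP1 (71.3%) and BCL2L11 (74.7%), both lower with the MI-503 label, and of BID (71.7%), which was higher, were all above the median of 58.7% over all windows. For BCL2 and BBC3 the window is not at the start of the most-read transcript, which lies 359 bases upstream for BCL2 and 1468 bases downstream for BBC3. These are letter matches in short windows, and no binding was measured in these libraries.

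Among the anti-apoptotic genes, the labels differed in opposite directions. BCL2, which gives the family its name (GRCh38, chr18:63123346-63320128, minus strand), was at 7.83, 5.03 and 4.29 CPM with the DMSO label and at 0.731, 1.67 and 1.84 CPM with the MI-503 label. Every DMSO library lay above every MI-503 library, at 94 to 173 reads against 15 to 32. The mean went from 5.72 ± 1.87 to 1.42 ± 0.598 CPM (SD, n = 3), giving a log2 fold change of -2.02 ± 0.43 (SE, the standard error, with edgeR adjusted p = 0.00232), or 4.05-fold lower. The MI-503 libraries are also those with the higher ESR1 values given above, and the part of this in the BCL2 value was not tested. BCL2L1 (chr20:31664452-31723989, minus strand), the gene of BCL-XL, was at 84.4, 95.5 and 92.8 CPM against 287, 331 and 345 CPM. The libraries of each label lay close together and far from the others. The mean went from 90.9 ± 5.78 to 321 ± 30.3 CPM (SD, n = 3), giving a log2 fold change of 1.82 ± 0.15 (SE, edgeR adjusted p = 4.66e-06), or 3.53-fold higher, the smallest adjusted p among the 10 genes. MCL1 (chr1:150560895-150579738, minus strand) encodes a short-lived protein that cells replace continually. It was at 212, 216 and 198 CPM against 421, 317 and 306 CPM, without overlap and with MI-503 replicate 1 the highest. The log2 fold change was 0.74 ± 0.17 (SE, edgeR adjusted p = 0.0031), or 1.67-fold higher.

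The effector genes showed the smallest separation. BAX (chr19:48954815-48961798, plus strand) was at 11.9, 19.1 and 24.1 CPM with the DMSO label and at 23.7, 18.6 and 22.3 CPM with the MI-503 label. The ranges overlapped, and the 3 DMSO libraries spread more widely than the means were apart. The log2 fold change of 0.23 ± 0.26 (SE) did not pass, with an adjusted p of 0.46 from edgeR and a 95% interval from -0.35 to 0.81. BAK1 (chr6:33572547-33580293, minus strand), whose product sits in the mitochondrial outer membrane, was at 18.1, 25.3 and 32.4 CPM against 40.1, 34.9 and 48.8 CPM. Its lowest MI-503 library was just above its highest DMSO library. The log2 fold change was 0.71 ± 0.23 (SE, edgeR adjusted p = 0.0226). It no longer passed without DMSO replicate 1 (adjusted p = 0.0567), without DMSO replicate 2 (0.0663) or without MI-503 replicate 3 (0.0923).

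The BH3-only genes split into 3 higher and 2 lower. PMAIP1 (chr18:59899996-59904305, plus strand), the gene of NOXA, was at 19.1, 26.1 and 14.3 CPM against 7.02, 5.23 and 2.97 CPM, and every MI-503 library was below every DMSO library. Its mean went from 19.8 ± 5.97 to 5.07 ± 2.03 CPM (SD, n = 3), giving a log2 fold change of -1.96 ± 0.34 (SE, edgeR adjusted p = 0.000688). BCL2L11 (chr2:111119378-111168444, plus strand), the gene of BIM, was at 44.7, 22.3 and 27.9 CPM against 18.0, 18.7 and 12.1 CPM. The groups did not overlap, but DMSO replicate 2 was only slightly above the highest MI-503 library, and DMSO replicate 1 stood well above the rest. The log2 fold change was -0.96 ± 0.28 (SE, edgeR adjusted p = 0.0132), and it did not pass without MI-503 replicate 3 (adjusted p = 0.0577).

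BBC3 (chr19:47220822-47232766, minus strand), the gene of PUMA and a p53 target, was at 11.9, 13.5 and 7.25 CPM with the DMSO label and at 54.5, 18.7 and 17 CPM with the MI-503 label. All 3 MI-503 libraries were above the DMSO libraries, but replicate 1 held most of the difference. The log2 fold change was 1.47 ± 0.44 (SE, edgeR adjusted p = 0.0145) with all libraries and 0.77 (adjusted p = 0.0368) without MI-503 replicate 1. That same library was the highest of the 6 for MCL1, for BMF (56.2 CPM, against 31.7 and 29.8 in the other MI-503 libraries) and for the stress-response factor gene DDIT3 (545 CPM, against 238 and 146), and the part of this library in the BBC3 value beyond leaving it out was not tested. BID (chr22:17734138-17774770, minus strand), whose protein caspase-8 cleaves to carry death receptor signals to mitochondria, was at 15.6, 17.1 and 12.0 CPM against 25.2, 30.2 and 31.1 CPM. Its groups were well separated, with a log2 fold change of 0.95 ± 0.20 (SE, edgeR adjusted p = 0.00212). BAD (chr11:64269830-64284704, minus strand), whose protein is held inactive by phosphorylation through AKT and other kinases, was at 33.1, 43.1 and 39.3 CPM against 50.7, 60.8 and 57.0 CPM. The gap between the groups was narrower than the range within each, and the log2 fold change was 0.54 ± 0.17 (SE, edgeR adjusted p = 0.0155). Without MI-503 replicate 2 the adjusted p was 0.0611. BAD shares 404 exon bases with GPR137 on the opposite strand, which had 1079 to 1285 reads per library, and whether the libraries kept strand is not given in the sources used here, so some reads of this pair may be exchanged. The opposite-strand partners of BCL2L1 (ABALON, 12 to 39 reads per library) and BCL2L11 (MIR4435-2HG, 19 to 47 reads) had few reads, as did the pseudogene copy BAK1P1, with at most 1 read.

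**Figure D2:**
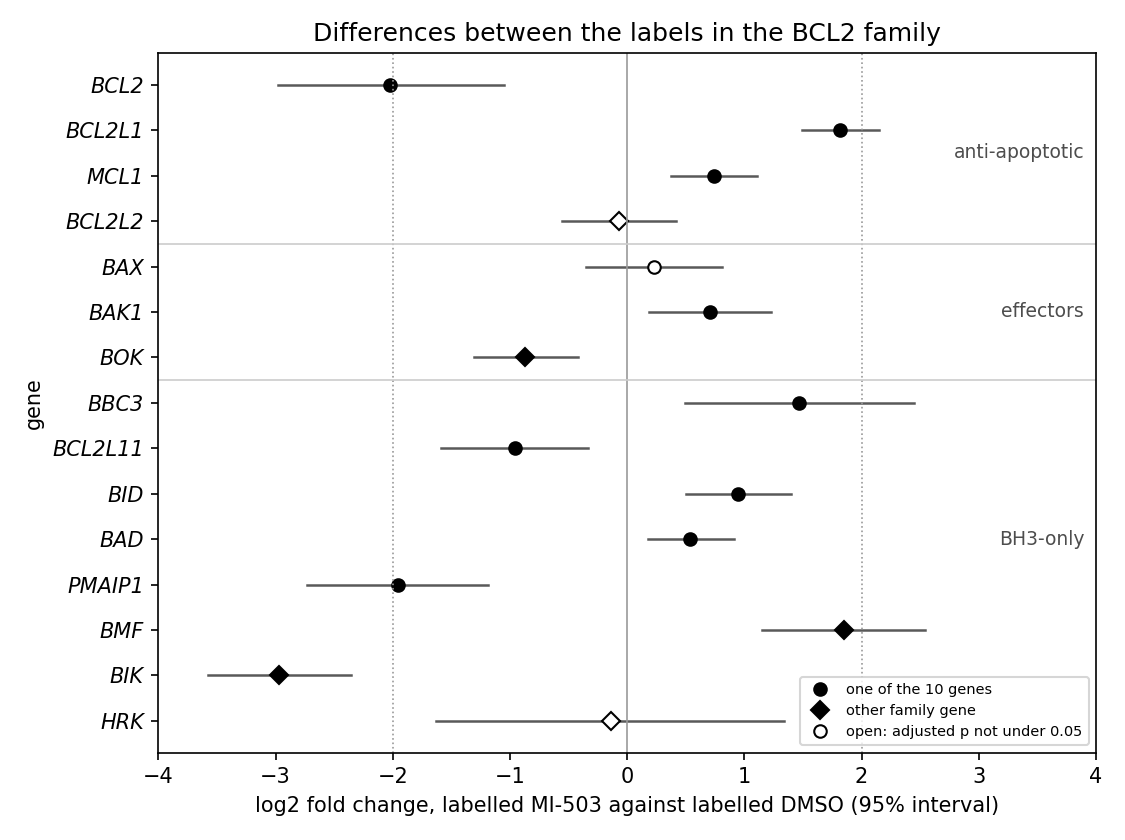
Log2 fold change of the 10 genes (circles) and of 5 further family genes (diamonds) between the labels, on the x axis, with 95% intervals as lines. Filled symbols passed an adjusted p of 0.05, dotted lines mark a log2 fold change of 2 in size, and the open symbols are BCL2L2, BAX and HRK. BIK at -2.97 lies furthest to the left and BMF at 1.85 furthest to the right.

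The remaining family genes also split in direction. Together with the 10, the family list held 17 genes, of which 15 could be tested, with 7 higher, 5 lower and 3 not past. That is 80% called, where 62.9% of all genes tested were, and it includes the calls of the 10 genes. BIK, a BH3-only gene known as estrogen-regulated in breast cells, was at 12.3, 15.5 and 11.7 CPM against 1.90, 1.57 and 1.54 CPM, giving a log2 fold change of -2.97 ± 0.27 (SE, edgeR adjusted p = 1e-05). Its log2 fold change was larger in size than that of any of the 10 genes. BMF, a BH3-only gene linked to loss of cell attachment, was at 14.1, 11.4 and 7.29 CPM against 56.2, 31.7 and 29.8 CPM, giving a log2 fold change of 1.85 ± 0.31 (SE, edgeR adjusted p = 0.000554). BOK, an effector relative, was lower, at 98.3, 74.6 and 59.3 CPM against 38.4, 42.8 and 46 CPM (log2 fold change -0.87 ± 0.20 SE, adjusted p = 0.00367). BCL2L2, the gene of the anti-apoptotic BCL-W, was at 51.4 to 88.8 CPM in all 6 libraries with overlapping labels (log2 fold change -0.07, 95% interval -0.56 to 0.42, adjusted p = 0.784). HRK was at 0.456 to 5.07 CPM and did not pass either (log2 fold change -0.14, 95% interval -1.63 to 1.34, adjusted p = 0.864), and its log2 fold change was 0.68 without DMSO replicate 1. The anti-apoptotic genes BCL2A1 and BCL2L10 had at most 2 reads in any library and were not tested.

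Levels of different genes were compared per length, as the deposited TPM (salmon's transcript level, which divides reads by effective length). With the DMSO label the order by mean TPM was MCL1 (76.5), BAD (74.1), BCL2L1 (50.1), BAX (37.7), PMAIP1 (18.5), BID (17.2), BAK1 (16.8), BCL2L11 (10.9), BBC3 (8.96) and BCL2 (1.23). Neighbours in this order had overlapping ranges except BAD above BCL2L1, BAX above PMAIP1 and BBC3 above BCL2. With the MI-503 label the order was BCL2L1 (169), MCL1 (119), BAD (111), BAX (41.6), BID (34.4), BAK1 (25.7), BBC3 (22.5), BCL2L11 (4.86), PMAIP1 (4.53) and BCL2 (0.305). There, neighbouring ranges were apart for BCL2L1 above MCL1, BAD above BAX, BBC3 above BCL2L11 and PMAIP1 above BCL2. BCL2L1 thus moved above MCL1, PMAIP1 went from the middle of the order to the place before last, and BCL2 was the least abundant member under both labels.

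All transcripts of each gene, coding or not, were summed by role. Those of the anti-apoptotic genes were at 134, 128 and 122 TPM with the DMSO label. With the MI-503 label they were at 286, 287 and 290 TPM. Almost all of this came from BCL2L1 and MCL1, since BCL2 gave 0.957% ± 0.274 and 0.106% ± 0.0436 of it (SD, n = 3 each). The sum includes the short, pro-apoptotic form of BCL2L1 described below, on average 6.3% against 14.0% of that gene's TPM. It also includes MCL1 transcripts without a coding sequence, on average 6.7% against 8.8% of that gene's TPM. The effectors summed to 38.6, 55.3 and 69.6 TPM against 74.5, 57.4 and 70.1 TPM, with overlap. The BH3-only genes summed to 134, 139 and 116 TPM against 178, 180 and 173 TPM, of which BAD alone was 57.4% ± 5.81 and 62.6% ± 5.79 (SD, n = 3 each). The ratio of the anti-apoptotic gene sum to the BH3-only sum was 0.998, 0.923 and 1.05 with the DMSO label. With the MI-503 label it was 1.61, 1.59 and 1.68, so the groups were apart and each was tight. The ratio of the anti-apoptotic gene sum to the effector sum was 3.46, 2.31 and 1.75 against 3.84, 4.99 and 4.14. In this ratio DMSO replicate 1 was close to the MI-503 libraries. These sums describe transcripts and not proteins, and no test was made on them because their members were chosen. They and their ratios cover the 10 genes only and would differ with other family genes included. Left out were BOK (mean TPM 40.0 against 20.1), BCL2L2 (29.5 against 27.4), BIK (25.0 against 2.97), BMF (4.25 against 13.4) and HRK (0.653 against 0.532).

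**Figure D3:**
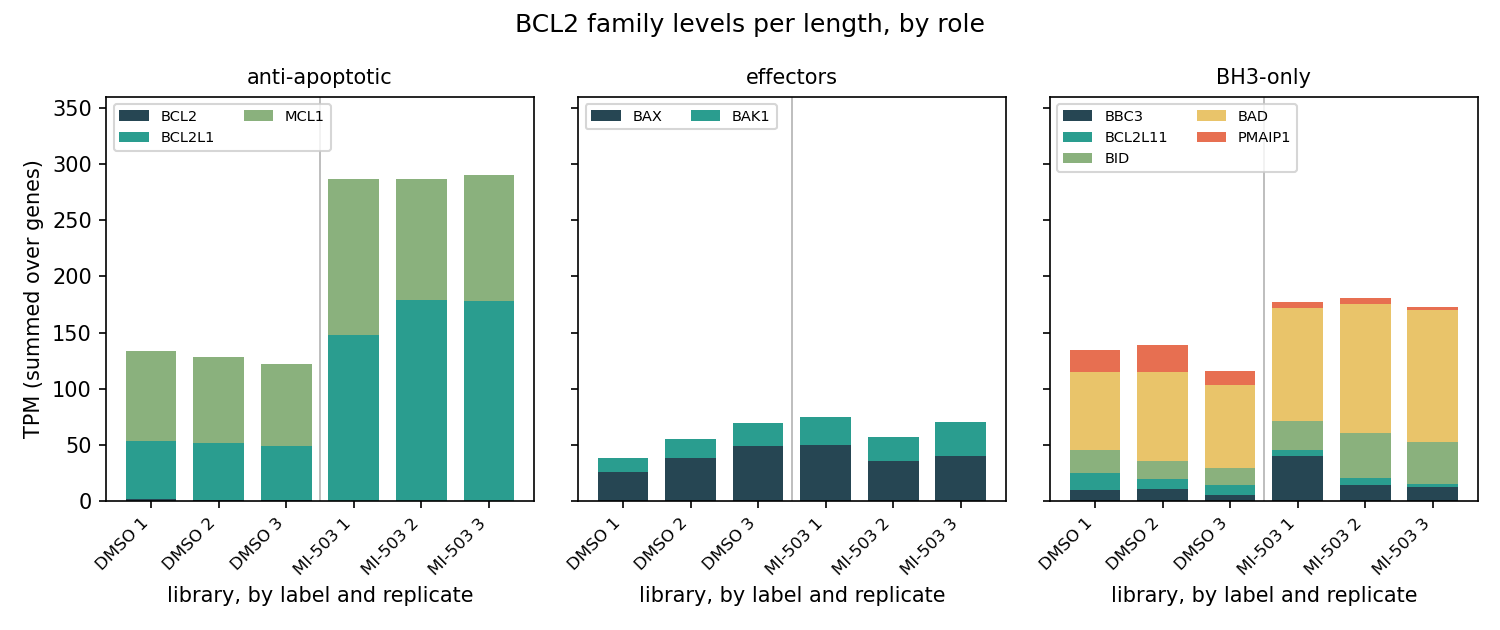
Deposited TPM of the 10 genes in each library, stacked by gene within each role, on axes that start at 0. The anti-apoptotic stack stands at 122 to 134 TPM in the DMSO libraries and at 286 to 290 TPM in the MI-503 libraries, the effector stacks overlap, and the PMAIP1 segment of the BH3-only stack is thinner in each MI-503 library.

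Ratios between single genes were taken from the same TPM. MCL1 transcripts outnumbered those of PMAIP1, whose protein binds MCL-1, by 4.24, 3.24 and 5.56 to 1 with the DMSO label and by 22.5, 22.9 and 40.0 to 1 with the MI-503 label. The ratio of MCL1 to BCL2L11 was 5.35, 8.70 and 8.26 against 25.3, 17.9 and 35.2, and that of BCL2L1 to BCL2L11 was 3.44, 5.76 and 5.45 against 27.2, 30 and 56.4. MCL1 to BCL2L1 was 1.56, 1.51 and 1.52 with the DMSO label, nearly the same in each library, and 0.930, 0.598 and 0.625 with the MI-503 label. BBC3 to PMAIP1, the pair of BH3-only genes most often discussed as p53 targets, was 0.524, 0.472 and 0.445 against 6.54, 3.15 and 4.48. BCL2 to BAX, a ratio often used in the field, was 0.0378 ± 0.0253 against 0.0078 ± 0.00403 (SD, n = 3 each), while BCL2L1 to BAX was 1.44 ± 0.533 against 4.17 ± 1.08. Each of these 7 ratios was apart between the labels. They are built from genes that mostly did not overlap themselves, as held for 68.7% of all genes tested. So this count is no result about the family. MCL1 to BAX (2.21 ± 0.854 against 2.86 ± 0.141) and BAX to BAK1 (2.21 ± 0.233 against 1.64 ± 0.354) overlapped between the labels.

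Several of these genes make proteins of different function by splicing, so reads were also summed over transcripts with the same annotated coding sequence. BCL2L1 codes for the anti-apoptotic BCL-XL of 233 residues and for the short, pro-apoptotic BCL-XS of 170 residues. The long form had 1670, 1870 and 1927 reads with the DMSO label and 5062, 5308 and 5141 with the MI-503 label. The short form had 161, 89 and 87 reads against 747, 950 and 599. Both were thus higher with the MI-503 label, and the short form took a larger share there, at 8.63%, 4.52% and 4.27% of the gene's reads against 12.7%, 15.0% and 10.3%. The shares did not overlap, and by TPM the mean share of the short form was 6.3% ± 2.88 against 14.0% ± 2.53 (SD, n = 3 each). The short form sums 2 transcripts, and each of them overlapped between the labels. BCL2L1-205 took 7.09%, 0% and 0% of the gene's reads against 8.16%, 11.45% and 6.25%. BCL2L1-202 took 1.54%, 4.52% and 4.27% against 4.53%, 3.55% and 4.07%. The gap in the sum thus rests in part on an estimate of 0 reads for BCL2L1-205 in DMSO replicates 2 and 3. Salmon divides reads between transcripts by estimate, the files hold no error of that division, and the shares were not tested. Among transcripts of the long form, BCL2L1-209 took 15.4%, 12.4% and 11.4% of the gene's reads against 3.11%, 2.75% and 5.06%.

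**Figure D4:**
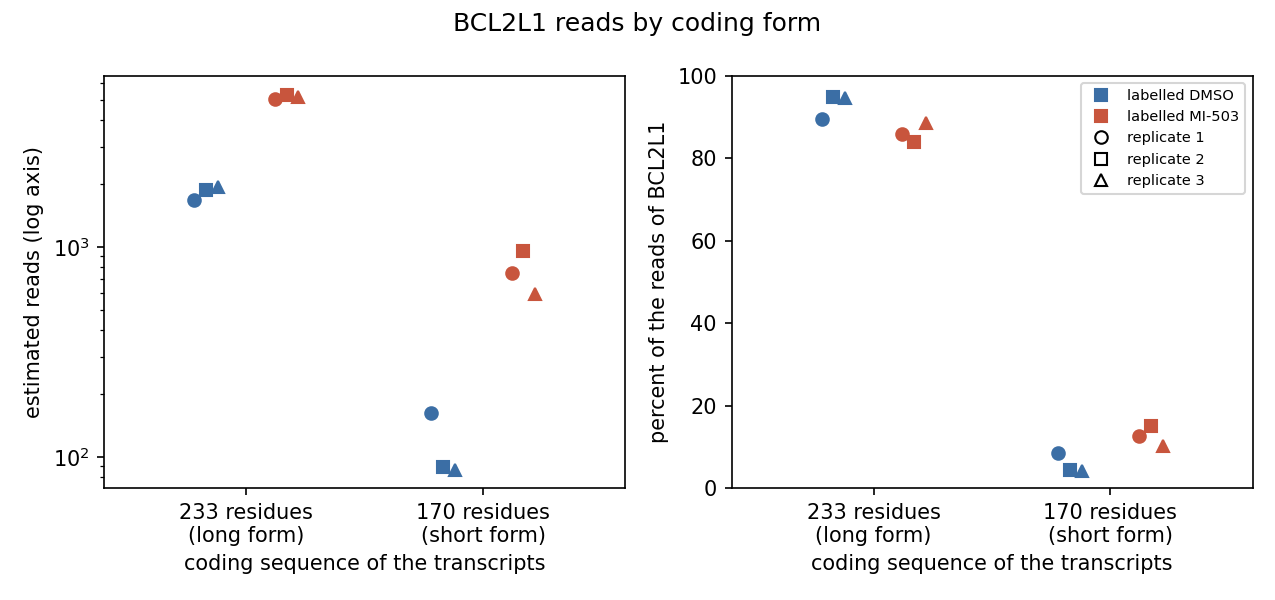
Estimated reads (left, log axis) and percent of the gene's reads (right) of BCL2L1 transcripts coding for the long form of 233 residues and the short form of 170 residues, a point per library. In both panels the labels are apart for both forms, with the short form between 4.27% and 8.63% in DMSO libraries and between 10.3% and 15.0% in MI-503 libraries.

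Among the main coding forms of the other genes, those taking at least 10% of reads in any library, only the 218-residue form of BAX was apart between the labels. MCL1 reads came to 86.1% to 93.5% from transcripts of the 350-residue, anti-apoptotic form. BCL2 reads came to 56.0% to 86.5% from the 239-residue form and the rest from the 205-residue form, with 15 to 173 reads per library in all. BAX divided between the 192-residue form at 34.6% to 54.6%, the 218-residue form, and transcripts without a coding sequence at 17.7% to 27.9%. The 218-residue form, which is the transcript BAX-201, took 34.3%, 24.5% and 35.5% of the reads with the DMSO label and 40.2%, 38.1% and 37.9% with the MI-503 label, and by TPM 20.3%, 13.7% and 19.7% against 20.8%, 22.2% and 23.3%. BCL2L11 reads came almost wholly from the 198-residue form known as BIM-EL, at 92.1% to 100%. By TPM this form took a wider range, 64.9% to 100%. A further BCL2L11 transcript, BCL2L11-203, had a deposited length of 482 bases against 5171 in GENCODE, which limits these shares. BID came to 50.7% to 74.5% from the full-length form of 195 residues and to 20.7% to 42.1% from a 99-residue form. The 54-residue form of NOXA took 97.4% to 100% of PMAIP1 reads, the 193-residue form of PUMA 67.6% to 93.1% of BBC3 reads, the 168-residue form 93.1% to 97.7% of BAD reads, and the 211-residue form 97.8% to 100% of BAK1 reads. Within the main form of BAD, BAD-201 went from 79.1%, 86.7% and 86.1% to 88.1%, 91.5% and 88.6% of the reads, without overlap by reads but with overlap by TPM. The transcript BAD-203 went from 14.3%, 9.45% and 11.7% to 5.69%, 3.30% and 4.54% of the BAD reads, without overlap. BID-203 went from 10.1%, 14.8% and 9.09% to 8.02%, 4.60% and 4.72% of the BID reads, without overlap by reads but with overlap by TPM.

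Around these genes, 10 lists of apoptosis genes, the further family genes included, held 109 different genes, of which 101 were tested, 31 higher, 34 lower and 36 not past, so 64.4% were called where 62.9% of all genes were. Downstream of the mitochondria, the list of the apoptosome and caspases had 3 higher, 3 lower and 4 not past of 10. APAF1, the scaffold on which cytochrome c activates caspase-9, was at 19.2, 12.4 and 13.9 CPM against 57.7, 46.1 and 47.8 CPM (log2 fold change 1.74 ± 0.21 SE, adjusted p = 6.21e-05). The initiator caspase gene CASP8, whose product cleaves BID, was lower, at 22.6, 23.0 and 24.2 CPM against 6.97, 10.9 and 13.3 CPM (log2 fold change -1.17, adjusted p = 0.00218). CASP10, the other initiator of death receptors, was also lower, from 2.92 ± 0.498 to 0.0686 ± 0.0803 CPM (SD, n = 3 each), with a log2 fold change of -5.25 that became -6.46 without MI-503 replicate 2. Of 9 inhibitors of apoptosis and their antagonists, 3 were higher, 3 lower and 3 not past. DIABLO, the gene of the antagonist Smac, went from 49.8 ± 6.39 to 97.5 ± 5.59 CPM, BIRC2 from 43.1 ± 7.61 to 90.1 ± 9.04 CPM and NAIP from 10.1 ± 2.16 to 3.99 ± 0.95 CPM (SD, n = 3 each). BIRC7 had 2 reads in all with the DMSO label, both in replicate 2, and its pooled ratio was 104 with a 95% counting interval from 28.5 to 868. Its fitted log2 fold change was 6.41 with all libraries and 8.99 without DMSO replicate 2, which leaves that group at 0.

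Upstream, the death receptor list had 6 higher, 3 lower and 3 not past of 12, where 62.9% of all genes tested were called. TNFSF10, the gene of the ligand TRAIL, went from 1.36 ± 1.17 to 22.3 ± 5.41 CPM (SD, n = 3), with a log2 fold change of 4.04, or 4.97 without DMSO replicate 2. The TRAIL decoy receptor gene TNFRSF10D was at 61.7, 57.5 and 36.8 CPM with the DMSO label and at 0 in all MI-503 libraries, at least 977-fold lower. Another decoy receptor gene, TNFRSF10C, was higher, from 1.36 ± 0.816 to 11.7 ± 3.30 CPM, as was TNF, from 0.523 ± 0.218 to 2.56 ± 0.671 CPM (SD, n = 3 each). The mitochondrial partners had 3 higher, 5 lower and 4 not past of 12. VDAC1, the main channel of the outer membrane, was lower, from 397 ± 35.1 to 187 ± 12.1 CPM, as were PPIF, the gene of cyclophilin D, from 265 ± 74.7 to 88.3 ± 14.4 CPM, and the ADP/ATP carrier gene SLC25A4, from 70.2 ± 16.6 to 24.9 ± 4.08 CPM. OPA1, which shapes the inner membrane cristae, was higher, from 126 ± 9.74 to 304 ± 34.9 CPM (SD, n = 3 each). Of 9 tested atypical relatives and BNIP genes, 2 were higher, 4 lower and 3 not past. The mitophagy receptor gene BNIP3 went from 379 ± 69.4 to 51.8 ± 6.67 CPM, BCLAF1 from 240 ± 32.4 to 99.9 ± 6.72 CPM and BNIPL from 0.341 ± 0.0614 to 107 ± 21.9 CPM (SD, n = 3 each). BNIP3L, a close relative of BNIP3, was lower by a log2 fold change of -0.76 (adjusted p = 0.0233), a call lost without any 1 library other than DMSO replicate 3, at adjusted p between 0.0561 and 0.0857.

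Factors that act on these genes or their products were also mixed. Of 11 tested transcription factors that act on BH3-only genes, 2 were higher, 6 lower and 3 not past. For this and the next lists, 62.9% of all genes tested were called. MYC was at 433, 359 and 227 CPM against 19.7, 21.3 and 36.8 CPM (log2 fold change -3.71 ± 0.32 SE, adjusted p = 6.13e-06). DDIT3, the gene of the stress-induced factor CHOP, was at 34.4, 24.6 and 11.8 CPM against 545, 238 and 146 CPM (log2 fold change 3.71 ± 0.52 SE, adjusted p = 0.000177), or 3.08 without MI-503 replicate 1. JUN went from 83.5 ± 7.75 to 44.3 ± 6.11 CPM and the p53 relative TP73 from 10.1 ± 0.666 to 21.6 ± 3.59 CPM (SD, n = 3 each). Among 24 tested p53 targets other than the 10 genes, 8 were higher, 5 lower and 11 not past, with a median log2 fold change of 0.01. The 4 with the smallest adjusted p were TP53I3, which went from 3.69 ± 1.39 to 181 ± 94.7 CPM, GDF15 from 1210 ± 586 to 73.9 ± 43.2 CPM, PLK3 from 6.5 ± 2.19 to 0.773 ± 0.183 CPM and TIGAR from 18.7 ± 1.80 to 0.749 ± 0.823 CPM (SD, n = 3 each). The log2 fold change of TIGAR, -4.63, was -4.04 without MI-503 replicate 1 and -6.04 without MI-503 replicate 2. Of 12 genes that act in the turnover of MCL-1, NOXA, BIM or BCL-2, 5 were higher, 3 lower and 4 not past. TRIM17, a ubiquitin ligase for MCL-1, went from 0.617 ± 0.395 to 8.39 ± 0.885 CPM, a log2 fold change of 3.75, or 4.37 without DMSO replicate 3. FBXO10, which directs BCL-2 to degradation, went from 18.4 ± 2.53 to 6.38 ± 0.635 CPM, and the ubiquitin-conjugating enzyme gene UBE2J2 from 76.1 ± 9.88 to 37.4 ± 3.60 CPM (SD, n = 3 each). UBE2K, of the same class, was lower by a log2 fold change of -1.20, which was -0.47 with an offset for effective transcript length.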

How the data were processed

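RNA from 6 cultures, 3 per label, was sequenced, and the authors quantified transcripts with salmon. The deposited files give, per transcript, salmon's estimated count of reads, used here for tests, and TPM as the authors deposited it, which is relative to each library's own total, used for levels between genes, for sums and ratios set side by side between libraries, and for 1 alternative test. Builds in the submitters' processing notes are hg38 and GRCh38.p13. Not given in the sources used here are salmon's version, its index and strand settings. Of 231957 distinct transcripts, 98.8% matched GENCODE release 44, with at least 99.16% of reads. Estimated counts were summed to 61279 genes and rounded. edgeR 4.0.16 (R 4.3.3) with TMM scaling, filterByExpr (16442 genes kept) and the quasi-likelihood test compared the labels, with Benjamini-Hochberg adjustment over all genes tested. No covariate was used. CPM are TMM-scaled. DESeq2 1.42.0, limma 3.58.1 on log2(TPM + 1) and other settings were alternatives. The 95% intervals of log2 fold changes come from the edgeR fit and include the spread between replicates. Intervals of pooled ratios and floors (3 reads over a group) reflect counting error alone and leave out the spread between replicates. They may be too narrow even for that, because reads lacking molecular identifiers may be copies of 1 molecule.

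The 10 genes and all lists were chosen with earlier results of these data known. Named were the 10 genes, all further family genes, up to 4 genes of each other list by smallest adjusted p, and transcripts with at least 10% of a gene's reads in any library where they differed. A gene that this rule takes is not reported here. Grouping of transcripts by coding sequence was added after the values were seen.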

Additional observations from a re-analysis of the deposited data

How the results depend on the processing

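Under the 15 alternatives, BCL2, BCL2L1, MCL1, BBC3, BID and PMAIP1 kept their direction and passed in each, BAX passed in none (adjusted p 0.119 to 0.988), and no call reversed. Leaving out 1 library gave 5 to 6 of the 10 genes higher and 2 to 3 lower. The number past a log2 fold change of 2, 1 in the report, was 2 with upper-quartile scaling and 2 with mitochondrial genes left out. It was 0 with no filter on low counts and 0 with the offset for effective length. With limma on log2(TPM + 1) it was 0, with BCL2 at -0.76. On that scale BCL2 could not pass 2, because its mean of 1.23 TPM with the DMSO label is too low once 1 is added. The number was 0 to 2 when 1 library was left out. With BCL2 and PMAIP1 at -2.02 and -1.96, this count rests on 2 values near the threshold. Replicate numbers did not pair the libraries, with correlations of -0.098, 0.071 and -0.089 between libraries of the same number, and a replicate block gave 6 higher, 3 lower and 2 past a log2 fold change of 2. Upper-quartile scaling moved the median of all genes to -0.101 and left these directions as they were. In the 10 surrounding lists, counts stayed within 1.5 times, at 28 to 34 higher and 32 to 40 lower. By TPM in place of reads, 19 mean shares of transcripts moved by more than 1 SD. Depth limits BCL2 most, at 15 to 32 reads in each MI-503 library.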
